A study of Mus musculus with 12 samples.

Results

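The tumours of mice given navitoclax alone were set against those of mice given vehicle, 6 of the 12 RNA libraries of the series (3 navitoclax, 3 vehicle), over all genes. The libraries were chosen by the treatment written on each sample. The tumours grew under the skin of C57Bl/6 mice from 50000 injected cells of B16F10, an established mouse melanoma line, with genotype given as wild. Navitoclax mice received 100 mg/kg of the drug, the combination group received the same dose together with 25 mg/kg alisertib, the alisertib group received 25 mg/kg alisertib, and vehicle mice received the drug vehicles. All were dosed by daily oral gavage for 11 days, and each group had 3 libraries. Whether every library is a different animal is not stated, and a p-value here reflects only how far these samples differ, part of which may be technical. Whole tumours were sequenced, so host cells contribute RNA beside the melanoma cells, and fewer cells of a type cannot be told apart from less RNA per cell.

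Navitoclax is a small molecule that occupies the groove by which 3 survival proteins, namely BCL-xL, BCL-2 and BCL-w, hold pro-apoptotic BH3 proteins, which frees BAX and BAK to open the outer mitochondrial membrane. MCL-1, a further survival protein of the family, is not bound well by the drug. BCL-xL also keeps platelets alive, and loss of platelets is the drug's known effect on blood.

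The libraries held 30.04, 33.7 and 34.9 M reads (M, mega) in the navitoclax group, against 28.1, 26.8 and 29.98 M in the vehicle group. A pair of ribosomal RNA loci took 13.8 to 20.9% of the reads in the navitoclax libraries, against 21.8, 63.3 and 16.7% in vehicle 1, 2 and 3, so that vehicle 2 had 9.86 M other reads. The 3 reads that a count of 0 still allows correspond to a normalised count of 2.37 to 2.48 in the navitoclax libraries and of 2.997, 7.35 and 2.65 in vehicle 1, 2 and 3. Such floors cover counting error only. The melanocyte lineage markers matched the labelled cell line: the pigment cell gene Pmel read 147201, 157076 and 190083 in navitoclax tumours, against 118314, 125600.0 and 132499 in vehicle tumours. Pearson's r between libraries, over genes on the log2 scale (genes are not independent replicates), was 0.958 to 0.972 within the navitoclax group and 0.947 to 0.983 within the vehicle group. All values below are the authors' normalised counts, and log2 differences are navitoclax minus vehicle on log2(value + 2), which understates the change of low genes.

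Navitoclax alone changed few transcripts past the threshold. Of 16993 genes tested with limma, 11 had a Benjamini-Hochberg adjusted p under 0.05 (0.0647% of those tested), and all 11 were lower in navitoclax tumours. None was higher, while 1083 genes (6.37%) had an unadjusted p under 0.05, of which 420 were higher (2.47%) and 663 lower (3.9%). On recovered reads edgeR called 11 genes (0.0647%; 0 higher, 11 lower), DESeq2 called 87 (0.512%), with 9 higher (0.053%) and 78 lower (0.459%), and limma-voom called 39 (0.23%), with 1 higher (0.00588%) and 38 lower (0.224%). Each of the 11 limma calls was also made by at least 2 of these 3 count tests. The median log2 difference over all tested genes was 0.01, and 51.4% of them had a positive one.

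**Figure D1:**
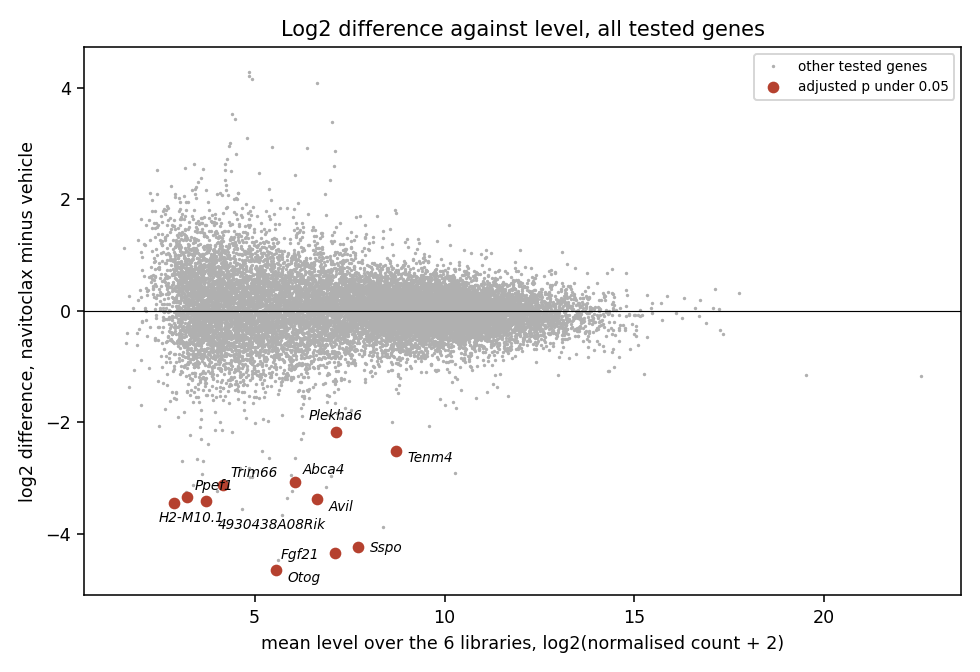
Log2 difference between navitoclax and vehicle tumours (vertical axis) against the mean level over the 6 libraries on the log2(normalised count + 2) scale (horizontal axis); each point is 1 of 16993 tested genes, and the 11 with an adjusted p under 0.05 are named. All 11 lie below 0, between -2.17 and -4.65.

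Genes of the drug's own targets were read first. Bcl2 (chr1:106538178-106714274, minus strand, GRCm38), which encodes BCL-2, read 5134, 3084 and 4057 in navitoclax tumours, against 5306, 4815 and 4770 in vehicle tumours, and the groups overlapped (log2 difference -0.31 ± 0.17 SE, adjusted p = 0.704). Bcl2l1 (chr2:152780668-152831728, minus strand), which encodes BCL-xL, read 2405, 2409 and 2441 in navitoclax tumours, against 2037, 3046 and 3492 in vehicle tumours (-0.20 ± 0.19, adjusted p = 0.721). The navitoclax libraries lay within the vehicle range. Bcl2l2 (chr14:54883377-54888234, plus strand), which encodes BCL-w, read 1213, 1649 and 1335 in navitoclax tumours, against 1045, 1294 and 1373 in vehicle tumours (0.17 ± 0.15, adjusted p = 0.716). Mcl1, the gene of the survival protein MCL-1, read 4045, 3835 and 4779 in navitoclax tumours, against 4230, 15356 and 3947 in vehicle tumours (-0.60 ± 0.62, adjusted p = 0.730). Its negative difference came with 1 high vehicle library, the one rich in ribosomal reads.

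None of the other genes of the death machinery passed the threshold. Of 10 tested BH3-only and effector genes 5 had positive and 5 negative differences (median 0.03), and of 21 apoptosome, caspase and IAP genes 14 were positive and 7 negative (median 0.04). Of the 10, 2 lay wholly above vehicle and 2 wholly below. Of the 21, 3 lay wholly above and 1 wholly below, against 6.5% above and 8.64% below over all tested genes. Bbc3, which encodes the BH3-only protein PUMA, read 262, 322 and 331 in navitoclax tumours, against 426, 733 and 390 in vehicle tumours, and did not overlap between groups (-0.70 ± 0.31, adjusted p = 0.704). The 20 p53 target genes likewise gave no call (median 0.04, 12 positive). Among them Cdkn1a, the gene of the cell cycle inhibitor p21, read 2718, 4039 and 3706 in navitoclax tumours, against 3247, 4874 and 4802 in vehicle tumours (-0.30 ± 0.20, adjusted p = 0.704). Platelet genes were sparse: 9 of 19 passed the filter on low values, their median difference was 0.09, and none separated the groups. Their median member stood at 0.88, -0.19 and -0.03 from the vehicle mean in navitoclax 1, 2 and 3. The median difference turned negative without navitoclax 1, without vehicle 3 and with a filter of CPM at least 1.

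Of the called genes, Avil and Sspo had the smallest adjusted p. Avil (ENSMUSG00000025432.11, chr10:127000709-127020994, plus strand) encodes advillin, an actin-binding protein of the gelsolin family known from sensory neurons. It read 28.1, 44.3 and 19.04 in navitoclax tumours, against 375, 292 and 291 in vehicle tumours. All 3 navitoclax libraries lay far below the lowest vehicle library, and the gene fell by 3.37 ± 0.32 on the log2 scale (adjusted p = 0.00422). Sspo (ENSMUSG00000029797.13, chr6:48448229-48501250, plus strand) encodes SCO-spondin, a large secreted glycoprotein of the brain's subcommissural organ. It read 23.2, 71.2 and 62.7 in navitoclax tumours, against 814, 1179 and 804 in vehicle tumours, with no overlap, and fell by 4.22 ± 0.41 (adjusted p = 0.00422). Both calls held whichever of the 12 libraries was left out (adjusted p up to 0.0378), and both were lost when only the 6 libraries compared entered the fit (adjusted p = 0.0871).

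Fgf21 (ENSMUSG00000030827.5, chr7:45613886-45615490, minus strand), a secreted hormone induced by nutrient and mitochondrial stress through the transcription factor ATF4, read 11.6, 60.1 and 32.5 in navitoclax tumours, against 745, 350 and 909 in vehicle tumours. Every navitoclax library was below every vehicle library, and Fgf21 fell by 4.34 ± 0.61 (adjusted p = 0.0334). Otog (chr7:46240987-46311434, plus strand), which encodes the inner ear glycoprotein otogelin, read 4.13, 12.7 and 7.14 in navitoclax tumours, against 248, 203 and 252 in vehicle tumours, and fell by 4.65 ± 0.56 (adjusted p = 0.0218). Abca4 (chr3:122044443-122180123, plus strand), the retinoid transporter of photoreceptors, read 14.9, 21.3 and 28.6 in navitoclax tumours, against 274, 115 and 220 in vehicle tumours, and fell by 3.07 ± 0.38 (adjusted p = 0.0218). Neither gene overlapped between groups.

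Among the called genes, Tenm4 and Plekha6 had the highest values in their lowest navitoclax library. Tenm4 (chr7:96171246-96911093, plus strand), which encodes the transmembrane adhesion protein teneurin-4, read 229, 219 and 107 in navitoclax tumours, against 1253, 909 and 889 in vehicle tumours, and fell by 2.50 ± 0.35 (adjusted p = 0.0334). Plekha6 (chr1:133164210-133303435, plus strand), a gene with a pleckstrin homology domain, read 63.7, 54.6 and 75.4 in navitoclax tumours, against 334, 385 and 199 in vehicle tumours, and fell by 2.17 ± 0.32 (adjusted p = 0.0393). In both, the groups were clear of each other.

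The other called genes had few reads in navitoclax tumours. Trim66 (chr7:109449006-109508134, minus strand), a nuclear tripartite motif gene, read 4.13, 7.91 and 1.59 in navitoclax tumours, against 53.9, 61.3 and 38.8 in vehicle tumours (adjusted p = 0.0270). The unnamed protein-coding gene 4930438A08Rik (chr11:58274799-58294289, plus strand) read 0.827, 3.16 and 2.38 in navitoclax tumours, against 29.97, 51.5 and 43.2 in vehicle tumours (adjusted p = 0.0218). In both genes the vehicle libraries stood well above the floor. Ppef1 (chrX:160623094-160735765, minus strand), which encodes a protein phosphatase with calcium-binding EF hands, read 0, 2.37 and 0.793 in navitoclax tumours, against 35.0, 19.6 and 30.01 in vehicle tumours (adjusted p = 0.0306). H2-M10.1 (chr17:36322858-36326155, minus strand), a nonclassical MHC class I gene known from vomeronasal neurons, read 0.827, 0 and 0 in navitoclax tumours, against 29.0, 27.0 and 14.1 in vehicle tumours (adjusted p = 0.0218). For Ppef1 and H2-M10.1 every navitoclax library lay at or under the floor of 3 reads, so the fitted differences depend on the pseudocount and are not given. H2-M10.1 belongs to a family of near-identical genes, among which reads may have been split.

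**Figure D2:**
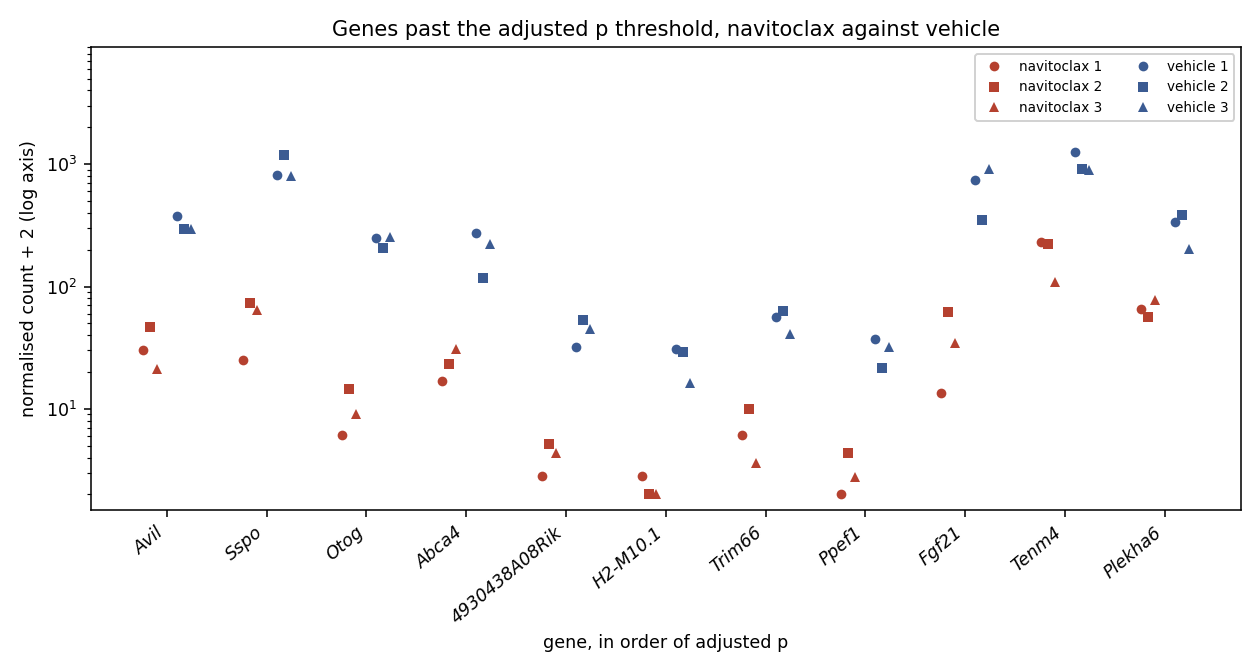
Normalised count plus 2 on a log axis for the 11 genes past the threshold, with navitoclax libraries 1 to 3 left and vehicle libraries 1 to 3 right within each gene. In each gene all 3 navitoclax libraries lie below all 3 vehicle libraries; Avil reads 19.04 to 44.3 against 291 to 375.

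Apart from Avil and Sspo, the calls rested on the full set of libraries. The other 9 genes each lost theirs when navitoclax 1, navitoclax 3, vehicle 1, vehicle 3 or alisertib 1 was left out, with highest adjusted p between 0.147 (Otog and Abca4) and 0.320 (Plekha6); alisertib 1 enters only the shared estimate of spread. Their log2 differences stayed negative throughout. In 10 of the 11 called genes the vehicle libraries were above all 9 libraries of the 3 drug arms, as in 2.31% of tested genes. In 1 of the 11 the navitoclax libraries were below all 9 others. Sspo, for example, read 20.4 to 71.2 over the 9 drug-treated libraries, and no vehicle library read under 804. The 11 genes were called for a difference between vehicle and navitoclax, so the navitoclax part of these counts was largely fixed by that choice. The share over all tested genes is therefore no like measure for them. Comparisons of the drug arms with vehicle share these 3 vehicle libraries.

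The promoters of the called genes are shown because Fgf21 is a target of ATF4, which binds DNA at a composite element with CEBP proteins. All 11 genes matched a RefSeq promoter entry (GRCm38.p6). The 250 bases before each RefSeq gene start were searched on both strands for TGATGNAA, the composite element, and for the ER stress element through which ATF6 acts. RefSeq and GENCODE place some starts differently: the RefSeq starts of Plekha6, Ppef1 and 1 of the windows of Tenm4 lie far inside the gene as GENCODE gives it, and those of 4930438A08Rik, Abca4 and H2-M10.1 lie a short way inside it. The element marked in 4930438A08Rik lies across the GENCODE start of that gene. Capitals mark the composite element, in Avil on the strand shown and in the other genes as its reverse complement. The windows are chr10:127000459-127000708 (plus strand) for Avil, chr11:58274578-58274827 (plus strand) for 4930438A08Rik and chr7:45615491-45615740 (minus strand) for Fgf21.
Avil: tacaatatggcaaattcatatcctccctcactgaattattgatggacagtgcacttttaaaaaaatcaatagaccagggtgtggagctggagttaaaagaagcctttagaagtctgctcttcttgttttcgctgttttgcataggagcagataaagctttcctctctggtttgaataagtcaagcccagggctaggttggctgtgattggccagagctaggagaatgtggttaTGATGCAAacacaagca
4930438A08Rik: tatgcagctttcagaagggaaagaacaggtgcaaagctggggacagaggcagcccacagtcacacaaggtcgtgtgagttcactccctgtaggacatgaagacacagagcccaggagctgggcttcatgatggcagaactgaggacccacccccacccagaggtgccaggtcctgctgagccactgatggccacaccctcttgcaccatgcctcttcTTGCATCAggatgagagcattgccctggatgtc
Fgf21: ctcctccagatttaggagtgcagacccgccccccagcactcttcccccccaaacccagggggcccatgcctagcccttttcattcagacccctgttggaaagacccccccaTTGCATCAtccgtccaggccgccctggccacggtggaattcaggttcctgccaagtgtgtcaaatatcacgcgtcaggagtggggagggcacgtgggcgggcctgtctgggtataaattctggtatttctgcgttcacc
Counted from the RefSeq gene start, the composite element began 17 bases before it in Avil, 33 in 4930438A08Rik and 139 in Fgf21. It was found in 3 of the 11 called genes, against 261 of 10927 tested genes with a promoter entry (2.39%), in 10 of 28 genes of the ATF4 list with an entry (35.7%) and in 1 of 15 genes with an entry (6.67%) among the lower genes that count tests alone called. The ER stress element was in none of the 11, against 0.183% of tested genes. Fgf21 prompted the search and also belongs to the ATF4 list. Its match was therefore likely before the search and is no separate result. A match is a run of letters and shows no binding.

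The genes that ATF4 induces in the integrated stress response, which adapts cells to amino acid shortage and protein stress, leaned low in navitoclax tumours, but unequally between libraries. Of 34 tested members 30 had negative differences, with a median of -0.44, and 1 (Fgf21) passed the threshold. In 8 of the 34 the navitoclax libraries lay below all vehicle libraries, against 8.64% of all tested genes. Nupr1, a stress-induced chromatin protein, read 91.0, 387 and 211 in navitoclax tumours, against 924, 880 and 603 in vehicle tumours (-2.0 ± 0.42, adjusted p = 0.260). DESeq2 and limma-voom called Nupr1 (adjusted p = 0.00799 and 0.0358), and edgeR did not. Trib3, a pseudokinase that restrains the response, read 269, 1803 and 665 in navitoclax tumours, against 2115, 2703 and 2135 in vehicle tumours (-1.74 ± 0.51, adjusted p = 0.661). Pycr1, an enzyme of proline synthesis, read 38.9, 143 and 64.3 in navitoclax tumours, against 220, 137 and 298 in vehicle tumours (-1.52 ± 0.49, adjusted p = 0.704). In each of these navitoclax 1 was lowest and navitoclax 2 highest of the drug group.

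That order ran through the list. The median member stood 0.87 log2 units below the vehicle mean in navitoclax 1 (-0.87), 0.45 below in navitoclax 3 (-0.45) and at 0.03 in navitoclax 2. Navitoclax 2 was the highest of the 3 navitoclax libraries in 30 of 34 genes and navitoclax 1 the lowest in 29. Without navitoclax 2, the list had 4 genes past the threshold and a median of -0.75. Calls over all 16993 tested genes also went from 11 to 20 then, 19 of them lower. The 4 genes were Fgf21, Nupr1, Trib3 and Chac1, of which Chac1, a glutathione-degrading enzyme, was named after its values were seen. Chac1 read 153, 691 and 243 in navitoclax tumours, against 667, 689 and 700 in vehicle tumours. Without navitoclax 1 the median was -0.18 and none was called, while 2 genes were called over all tested genes.

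Endoplasmic reticulum chaperones and genes of the unfolded protein response leaned low to a smaller but more even degree. Of 22 tested members 19 were negative (median -0.23), none passed the threshold, and in 9 the navitoclax libraries lay below all vehicle libraries, against 8.64% of all tested genes. Hspa5, which encodes the chaperone BiP, read 14121, 15130 and 14759 in navitoclax tumours, against 21780, 23324 and 27222 in vehicle tumours. The drug group was tight and lay wholly below vehicle (-0.71 ± 0.13, adjusted p = 0.137). Hspa5 was called when the ribosomal share was added as a covariate (adjusted p = 0.0407). It was also called by DESeq2 (adjusted p = 6.6e-06) and limma-voom (adjusted p = 0.0250), but not by edgeR. Hyou1, a further chaperone of the same compartment, read 7053, 7070 and 7060 in navitoclax tumours, against 9165, 13521 and 10996 in vehicle tumours (-0.65 ± 0.20, adjusted p = 0.704). Sel1l, an adaptor of ER-associated degradation, read 2124, 2378 and 2003 in navitoclax tumours, against 2746, 2943 and 3082 in vehicle tumours (-0.43 ± 0.13, adjusted p = 0.661). The median shifts from the vehicle mean were -0.21, -0.29 and -0.21 in navitoclax 1, 2 and 3, so that the spread seen in the ATF4 list was not seen here.

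Immediate early genes, which respond to growth factors within minutes, also had mostly negative differences: 18 of 22 tested, median -0.40, none called and 6 wholly below vehicle, against 8.64% of all tested genes. Fosl1, an AP-1 subunit, read 11.6, 11.9 and 13.5 in navitoclax tumours, against 31.97, 78.4 and 41.5 in vehicle tumours (-1.78 ± 0.38, adjusted p = 0.289). Without vehicle 2 the median of this list was -0.24.

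**Figure D3:**
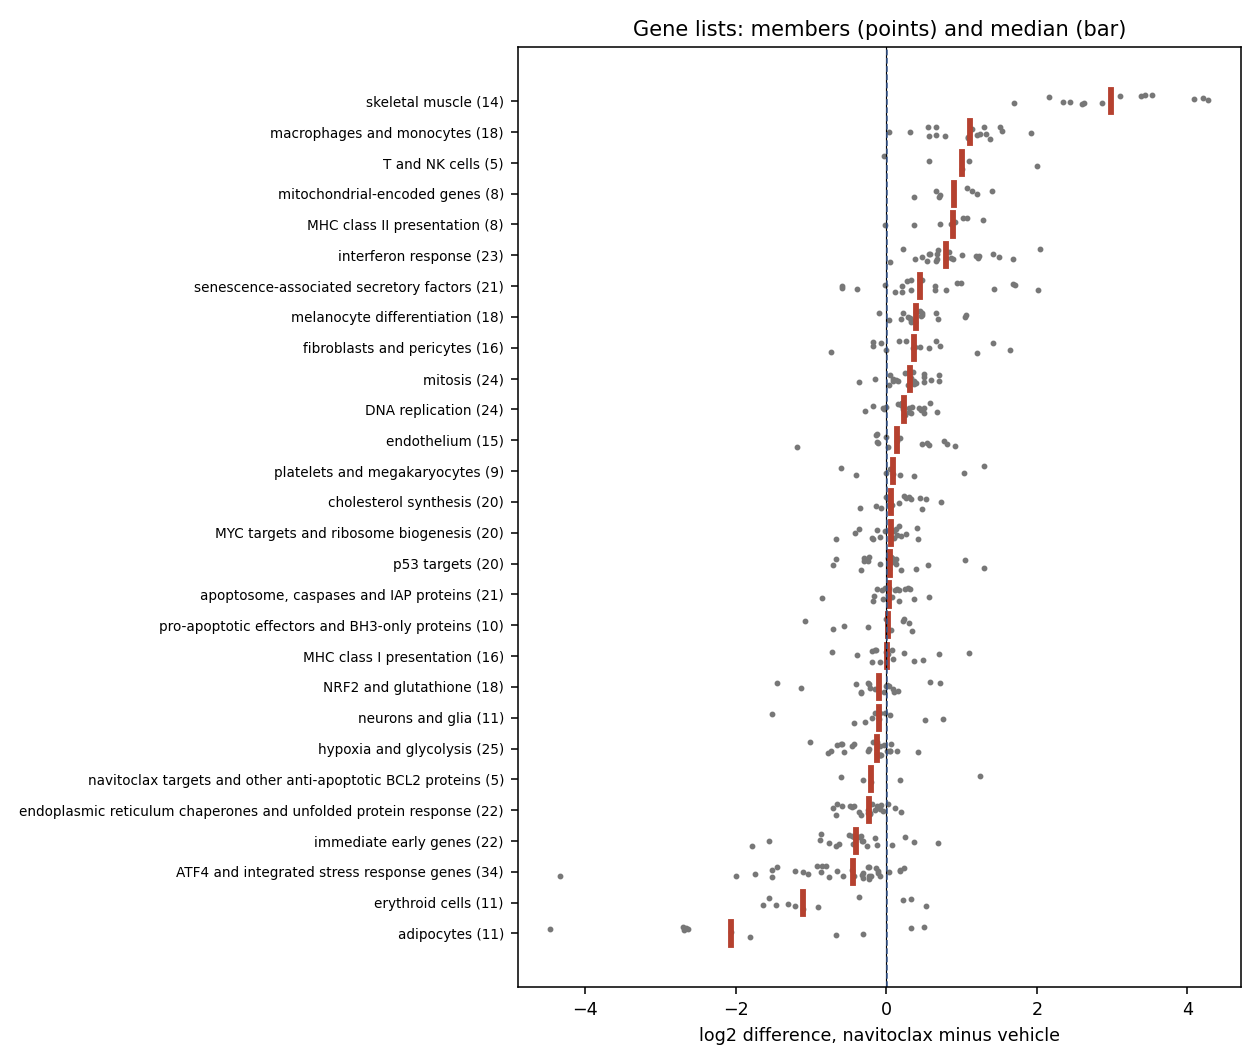
Log2 difference between navitoclax and vehicle tumours (horizontal axis) for the members of each gene list with at least 5 tested genes; the number tested is in brackets, points are genes, bars are list medians and the dashed line is the median of all tested genes, 0.01. The medians run from -2.07 for adipocyte genes to 2.98 for skeletal muscle genes, and 1 of the genes plotted, Fgf21, passed the threshold downwards.

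Genes of cell division leaned the other way by small amounts. Of 24 mitosis genes 22 had positive differences (median 0.31) and 9 lay wholly above vehicle, and of 24 DNA replication genes 20 were positive (median 0.23) and 14 lay wholly above vehicle, against 6.5% of all tested genes. None passed the threshold. Plk1, a mitotic kinase, read 1788, 1725 and 1491 in navitoclax tumours, against 1314, 980 and 1262 in vehicle tumours (0.50 ± 0.19, adjusted p = 0.704). Mcm5, a subunit of the replicative helicase, read 3356, 3553 and 3156 in navitoclax tumours, against 2689, 2543 and 2958 in vehicle tumours (0.30 ± 0.14, adjusted p = 0.704). Both genes separated the groups. Aurka, the gene of the kinase that alisertib inhibits, read 1121, 1425 and 1286 in navitoclax tumours, against 1103, 1473 and 1061 in vehicle tumours, with overlap (0.08 ± 0.18, adjusted p = 0.855).

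Pigment cell genes were mostly higher, with none called. Of 18 melanocyte differentiation genes 17 had positive differences (median 0.39) and 6 lay wholly above vehicle, against 6.5% of all tested genes. Trpm1, a channel of melanocytes, read 13582, 7699 and 19016 in navitoclax tumours, against 6056, 6606 and 5445 in vehicle tumours (1.06 ± 0.27, adjusted p = 0.505). Mreg, which acts in melanosome transport, read 2413, 2117 and 2533 in navitoclax tumours, against 1665, 1193 and 1583 in vehicle tumours (0.68 ± 0.18, adjusted p = 0.529). Neither overlapped, and Trpm1 passed the threshold when navitoclax 2 was left out (adjusted p = 0.0363). Sema6d, a membrane guidance protein of the semaphorin family and the gene with the smallest p among the higher genes named, read 699, 674 and 920 in navitoclax tumours, against 319, 331 and 318 in vehicle tumours. Its navitoclax libraries were all above its vehicle libraries (1.23 ± 0.23, adjusted p = 0.156), it was the 1 higher gene that at least 2 count tests called, and it passed the limma threshold without vehicle 2 and combination 3 (adjusted p = 0.0245).

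Further genes separated the groups without passing the threshold. On the lower side, Cdsn, the gene of the epidermal adhesion protein corneodesmosin, read 32.3, 171 and 110 in navitoclax tumours, against 1437, 733 and 2005 in vehicle tumours (-3.88 ± 0.68, adjusted p = 0.133). Soat2, a sterol acyltransferase, read 5.79, 8.70 and 7.14 in navitoclax tumours, against 78.9, 46.6 and 66.2 in vehicle tumours (-2.82 ± 0.43, adjusted p = 0.0562). Nnmt, which methylates nicotinamide, read 41.3, 32.4 and 40.5 in navitoclax tumours, against 133, 164 and 139 in vehicle tumours (-1.88 ± 0.31, adjusted p = 0.0923). These 3 were all wholly below vehicle and were among 22 lower genes that at least 2 count tests called outside the limma calls. Gadd45a, a DNA damage and stress gene, read 302, 508 and 371 in navitoclax tumours, against 809, 723 and 823 in vehicle tumours (-1.02 ± 0.19, adjusted p = 0.137). Rcn3, a calcium-binding protein of the secretory pathway, read 517, 257 and 397 in navitoclax tumours, against 1655, 2166 and 1071 in vehicle tumours (-2.06 ± 0.37, adjusted p = 0.137). Gadd45a and Rcn3 were also called by DESeq2 and limma-voom, but not by edgeR. On the higher side, Mir17hg, the host transcript of the miR-17-92 cluster, read 160, 162 and 114 in navitoclax tumours, against 94.9, 63.7 and 54.7 in vehicle tumours (1.03 ± 0.25, adjusted p = 0.450).

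Genes that interferon induces, in tumour and host cells alike, were spread widely over the navitoclax libraries. They had positive differences in 23 of 23 tested, with a median of 0.79. Yet 1 of them lay wholly above vehicle, against 6.5% of all tested genes, and none was called. Their median member stood 2.95 log2 units above the vehicle mean in navitoclax 3, 0.82 above in navitoclax 1 and below it (-0.83) in navitoclax 2. Navitoclax 3 was the highest of its group in 22 genes and navitoclax 2 the lowest in 23, and without navitoclax 3 the median was -0.08. Ifit3, an interferon-induced antiviral gene, read 334, 118 and 1197 in navitoclax tumours, against 79.9, 85.8 and 199 in vehicle tumours (1.69 ± 0.74, adjusted p = 0.704).

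Antigen presentation genes had the same order of libraries. MHC class II genes stood at 1.02, -2.28 and 2.87 from the vehicle mean in navitoclax 1, 2 and 3 (median of 8 tested genes), and MHC class I genes at -0.26, -1.01 and 1.44 (16 tested). H2-Aa, a class II chain, read 319, 17.4 and 1214 in navitoclax tumours, against 35.0, 164 and 146 in vehicle tumours (1.02 ± 1.38, adjusted p = 0.774). Navitoclax 2 was thus below, and navitoclax 1 and 3 above, all vehicle libraries for this gene.

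Macrophage and monocyte genes were positive in 18 of 18 tested (median 1.11), with 3 wholly above vehicle (6.5% of all tested genes were), 6 higher at an unadjusted p under 0.05 (2.47% of all tested genes were) and none called. Lyz2, the lysozyme of myeloid cells, read 1913, 1897 and 1842 in navitoclax tumours, against 397, 875 and 793 in vehicle tumours. Its navitoclax libraries were alike and all above vehicle (1.53 ± 0.37, adjusted p = 0.438). Fcgr3, an Fc receptor of the same cells, read 170, 64.8 and 221 in navitoclax tumours, against 26.0, 17.2 and 84.7 in vehicle tumours (1.93 ± 0.68, adjusted p = 0.704). The summed level of the list was 6793, 3729 and 8759 in navitoclax tumours, against 1740, 3984 and 3651 in vehicle tumours, so navitoclax 2 lay within the vehicle range. The part of macrophage content in the other differences was not tested. T and NK cell markers were mostly under the filter on low values: 5 of 19 were tested, and the defining genes Cd3d, Cd3e, Cd3g, Cd8a and Nkg7 were not among them.

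**Figure D4:**
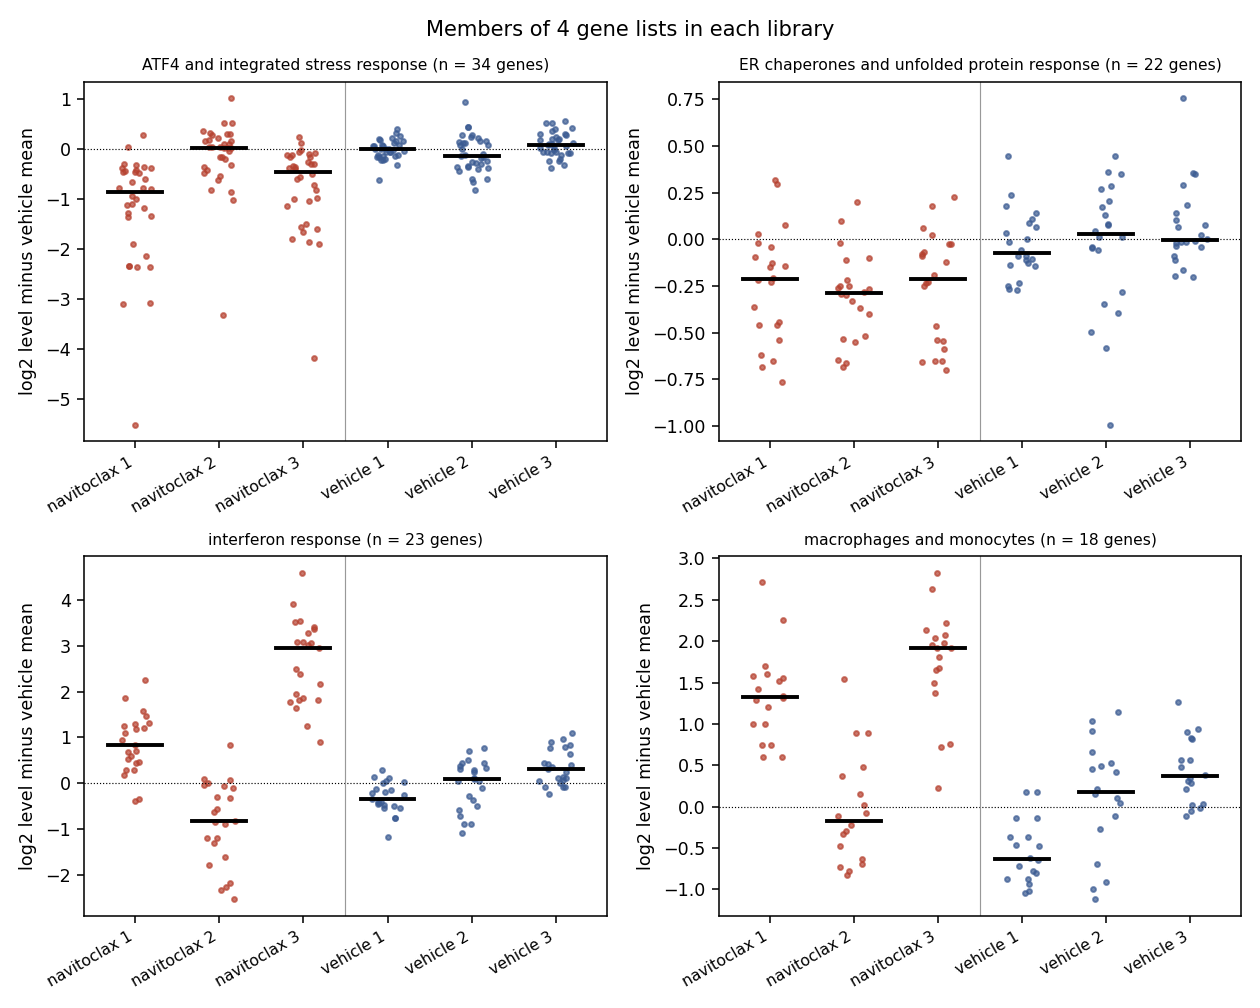
Log2 level minus the vehicle mean for each member (points) of 4 gene lists in navitoclax libraries 1 to 3 and vehicle libraries 1 to 3; bars are medians over the members. The ATF4 list is low in navitoclax 1 and 3 but not in navitoclax 2, ER chaperones are shifted alike in all 3, and interferon genes run from -0.83 in navitoclax 2 to 2.95 in navitoclax 3.

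Skeletal muscle RNA was carried by 1 library. All 14 tested muscle genes had positive differences (median 2.98), and their summed level was 131651, 315 and 983 in navitoclax tumours, against 209, 1139 and 484 in vehicle tumours. Without navitoclax 1 the median was 0.47. Actn2 and Srl, both muscle genes, were among the 9 higher genes that DESeq2 called and were named after their values were seen. Adipocyte genes ran low, with 9 of 11 negative (median -2.07): Cfd, an adipocyte-secreted protease, read 5.79, 0 and 71.4 in navitoclax tumours, against 115, 233 and 445 in vehicle tumours (-4.46 ± 1.86, adjusted p = 0.704). The adipocyte genes were uneven within both groups, with medians from the vehicle mean of -1.88, -2.57 and -1.15 in navitoclax 1, 2 and 3, against -0.98, -0.10 and 1.29 in vehicle 1, 2 and 3.

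The remaining lists gave no call. Senescence-associated secretory factors had 17 of 21 positive differences (median 0.44), but stood at 0.82, -0.41 and 1.24 from the vehicle mean in navitoclax 1, 2 and 3, and their median was 0.07 without navitoclax 3 and 0.83 without navitoclax 2. Their list included Tnf, a cytokine of macrophages, at 11.6, 6.33 and 35.7 in navitoclax tumours, against 2.997, 0 and 4.41 in vehicle tumours (adjusted p = 0.704). Hypoxia and glycolysis genes were negative in 19 of 25 (median -0.13), with 8 wholly below vehicle, against 8.64% of all tested genes. Among these Vegfa, the vascular growth factor, read 2768, 4122 and 3774 in navitoclax tumours, against 5034, 6280 and 4665 in vehicle tumours (-0.59 ± 0.28, adjusted p = 0.704). NRF2 and glutathione genes had a median of -0.09 over 18 tested, cholesterol synthesis genes 0.07 over 20, and endothelial genes 0.14 over 15 (0.01 without navitoclax 1). Fibroblast and pericyte genes had a median of 0.37 over 16, with shifts of 1.11, -0.65 and 0.47 in navitoclax 1, 2 and 3, and the median was 0.04 without navitoclax 1 and 0.87 without navitoclax 2. The 20 genes of MYC targets and ribosome biogenesis had a median of 0.06.

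Markers of blood cells and other tissues were few or uneven. Erythroid genes were negative in 8 of 11 tested (median -1.11), with shifts from the vehicle mean close to 0 in navitoclax 1, -2.56 in navitoclax 2 and -0.85 in navitoclax 3, against -1.04, 0.93 and 0.07 in vehicle 1, 2 and 3. Their median was -0.52 without navitoclax 2 and -1.73 without vehicle 1. Hba-a1, an alpha-globin gene, read 3716, 539 and 1223 in navitoclax tumours, against 1229, 9000 and 4641 in vehicle tumours, with navitoclax 2 and 3 lowest and navitoclax 1 within the vehicle range; its reads may be split with its near-identical copy Hba-a2. Mitochondrial-encoded genes, of which 8 of 13 were tested, all had positive differences (median 0.89), and their median was 0.34 without vehicle 2, which stood at -1.38. None of them read above 56.2 in any navitoclax or vehicle library. Medians were 1.10 for neutrophils (2 of 12 tested; 0.62 without navitoclax 3), 1.01 for T and NK cells (5 of 19), 0.78 for B cells (4 of 10; 0.31 without navitoclax 3), -0.01 for dendritic cells (3 of 9), -0.33 for keratinocytes (3 of 14) and -0.10 for neurons and glia (11 of 16). The part of these cells in the other differences was not tested.

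Set against alisertib, the other single drug, navitoclax tumours differed in 48 genes (0.282% of those tested), 47 lower and 1 higher. This comparison uses no vehicle library for its difference. In it 7 of 20 p53 targets were lower in navitoclax tumours and none higher. Against vehicle, the median difference of the 20 was 0.04 for navitoclax and 1.17 for alisertib. Cdkn1a read 2718, 4039 and 3706 in navitoclax tumours, against 10974, 10260 and 10482 in alisertib tumours, a difference of -1.62 ± 0.20 (adjusted p = 0.00557). Mdm2, whose protein degrades p53, read 2532, 2449 and 2226 in navitoclax tumours, against 5614, 5428 and 5288 in alisertib tumours (-1.18 ± 0.16, adjusted p = 0.00786). The other 5 were Zmat3, Tnfrsf10b, Trp53inp1, Btg2 and Ccng1, with differences from -1.22 to -1.99. Of the 7, Zmat3 and Tnfrsf10b kept their calls whichever library was left out (adjusted p up to 0.0419). Cdkn1a, Trp53inp1, Btg2, Ccng1 and Mdm2 lost theirs without alisertib 1, Btg2, Ccng1 and Mdm2 also without navitoclax 3, and Ccng1 and Mdm2 also without alisertib 2 (adjusted p up to 0.0675). Mcm5 was the 1 higher gene, at 3356, 3553 and 3156 in navitoclax tumours, against 1928, 1680 and 2163 in alisertib tumours (0.81 ± 0.14, adjusted p = 0.0448). Vehicle tumours read 2689, 2543 and 2958 for this gene. The Mcm5 call was lost without any 1 of 9 of the 12 libraries (adjusted p up to 0.284) and with no filter on low values. Of the 11 genes that fell against vehicle, 0 passed the threshold between navitoclax and alisertib.

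Combination and alisertib libraries form no part of the difference between navitoclax and vehicle. They do enter the shared estimate of spread, and so its p-values. Between combination and alisertib tumours no gene passed the threshold (0% of those tested; 596 at an unadjusted p under 0.05), and edgeR, DESeq2 and limma-voom made 0 calls as well. Several of the 11 called genes were too low in the drug arms for a further fall to be seen there: over the 9 drug-treated libraries the median was 0 in H2-M10.1, 0.852 in Ppef1, 1.53 in 4930438A08Rik, 4.13 in Otog and 6.55 in Fgf21. The floor of 3 reads was 2.77, 2.55 and 10.9 in combination 1, 2 and 3, against 2.55, 2.29 and 2.81 in alisertib 1, 2 and 3; combination 3 had 73.7% of its reads in ribosomal loci and 7.08 M others. Whether navitoclax lowers these 5 genes on top of alisertib therefore could not be read. The same medians were 8.42 in Trim66, 21.3 in Abca4, 28.1 in Avil and 31.3 in Sspo. In these genes too, a further fall as large as that against vehicle would end under the floor and could not be read. All 11 had negative differences between alisertib and vehicle too (median -3.44, against 0.01 over all tested genes). That comparison uses the vehicle libraries on which the 11 were called, so it is no separate result. Avil averaged 46.3 ± 13.5 in combination tumours and 24.3 ± 1.30 in alisertib tumours (SD, n = 3 each), a log2 difference of 0.84 ± 0.32 SE (adjusted p = 0.681). Fgf21 averaged 3.96 ± 3.28 in combination tumours and 4.62 ± 1.78 in alisertib tumours (adjusted p = 0.846), both near the floor. The difference between the navitoclax effect with and without alisertib passed the threshold for 1 gene, Avil (0.00588% of those tested), at 4.21 ± 0.45 (adjusted p = 0.0198). That call was lost without any 1 of navitoclax 1, combination 1, or a vehicle or alisertib library (adjusted p up to 0.133). The low level of Avil in alisertib tumours left no room above the floor for a fall of 3.37 there, which limits the reading of this term.

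**Figure D5:**
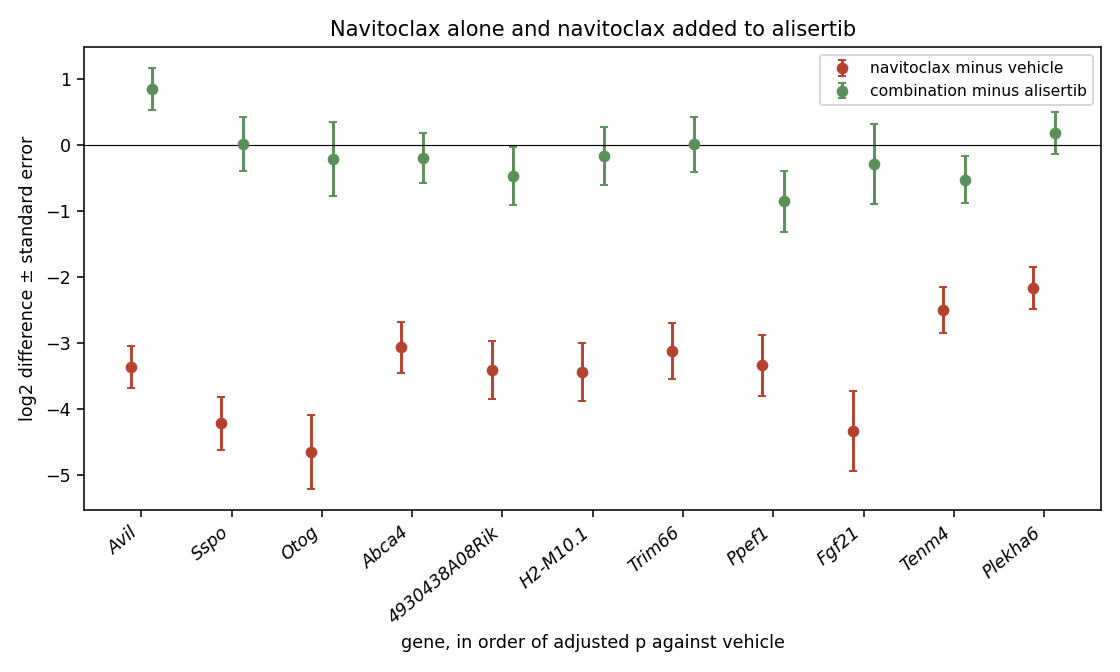
Log2 differences with standard errors for the 11 called genes, for navitoclax minus vehicle and for combination minus alisertib, which share no library for the difference but share the estimate of spread. The first run from -2.17 to -4.65; the second lie around 0, with Avil at 0.84, but several of these genes are at or near the floor of 3 reads in the drug arms.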

How the data were processed

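RNA was measured in 12 tumour libraries of 4 groups. The deposited table holds a signal per gene and library, gene counts that the authors normalised by 1 size factor per library; every column proved to be a whole number of equal steps (tolerance 0.001), and dividing by the step gave back the reads. Tools listed in the submitters' processing notes are DESeq2, featureCounts, Subread 1.5.1 and HISAT2 2.0.6, with builds GRCm38.p4 and mm10; the strand setting is not given in the sources used here. Symbols and coordinates came from GENCODE M21 by identifier (50376 of 50600 matched), promoters from RefSeq.

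Genes at 10 or more in at least 3 libraries were fitted in limma 3.58.1 (R 4.3.3) on log2(value + 2), with 4 group means over 12 libraries and trended, robust moderation; a count test had been planned, but the deposited signal is not raw counts. Adjusted p is Benjamini-Hochberg over 16993 genes, with a threshold of 0.05. On reads, edgeR 4.0.16, DESeq2 1.42.0 and limma-voom were alternatives, beside other filters, pseudocounts, scalings and left-out libraries. The code was tested on simulated data. Lists and comparisons were chosen with earlier results of these data known. Genes were named by rule: drug target genes, all calls, the 10 smallest p each way among named, non-overlapping genes with a mean of at least 50, 4 per list, and the 6 smallest p among count-test calls. The column of navitoclax 3 carries the same library code as that sample's title, by which it was assigned, although another field of its name is not the title's.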

Additional observations from a re-analysis of the deposited data

Results flagged for a closer look

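Avil was marked for a closer look because the effect of navitoclax differed between its 2 backgrounds by the interaction term of the limma fit: the log2 difference was 0.84 with alisertib and -3.37 without it, so that the difference of the 2 was 4.21 ± 0.45 SE (adjusted p = 0.0198 over 16993 genes; 0.0105 to 0.133 when 1 library was left out). The level was 46.3 ± 13.5 in combination tumours, 30.5 ± 12.8 in navitoclax tumours, 24.3 ± 1.30 in alisertib tumours and 319 ± 48.0 in vehicle tumours (SD, n = 3 each), which places the 3 vehicle libraries apart from the other 9. Avil was higher in 3 of 3 combination libraries than in each alisertib library, and lower in 3 of 3 navitoclax libraries than in each vehicle library. From 24.3 in alisertib tumours, a fall of 3.37 would end under the floor of 3 reads. The fall seen without alisertib could therefore not appear in full with it, and the interaction term is limited by this.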

How the results depend on the processing

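Calls between navitoclax and vehicle numbered 11, and changed as follows: 87 with DESeq2, 39 with limma-voom, 7 with a filter of CPM at least 1, 3 with a pseudocount of 0.5, 21 with a pseudocount of 8, 20 with the ribosomal share as covariate and 0 with only the groups compared (904 at an unadjusted p under 0.05); left-out libraries gave 2 to 20. Of the 10 calls without vehicle 2 and combination 3, an alternative chosen after seeing the data, 6 were shared with the 11. Against alisertib the 48 calls became 345 with DESeq2, 813 with limma-voom, 109 with only the groups compared, 651 with the ribosomal share as covariate and 239 without vehicle 2 and combination 3 (14 to 77 with a library left out). Higher genes were 1 of the 48 but 123 of 345 with DESeq2, 387 of 813 with limma-voom and 293 of 651 with the covariate. The interaction call of Avil (1) became 10 with DESeq2, 3 with limma-voom, 3 with a pseudocount of 8 and 0 without vehicle 2 and combination 3 (736 at an unadjusted p under 0.05), and 0 to 1 with a library left out. Combination against alisertib gave 0 calls under each alternative. No named gene reversed a called direction. Medians of the ATF4, ER chaperone, mitosis, DNA replication, melanocyte and macrophage lists kept their sign in all 25 alternatives. The median of the MHC class II list turned to -0.33 without navitoclax 3. That of the anti-apoptotic BCL-2 list turned positive (0.10 at most) without vehicle 2, without vehicle 2 and combination 3, and with the covariate. Medians also changed sign in 7 alternatives for dendritic cells, 4 for MYC targets and 3 each for the BH3-only and platelet lists. They did so in 2 each for p53 targets, MHC class I and neurons and glia, and in 1 for interferon genes. The cause of these shifts was not tested. No paired analysis was possible because the labels carry no replicate numbers. Vehicle 2, with 9.86 M reads outside the ribosomal loci, limits what could be seen of low genes.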
